A study of Mus musculus with 11 samples.

Results

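The chloride cotransporters Slc12a2 (NKCC1) and Slc12a5 (KCC2) and the GABA-A receptor subunits Gabra2, Gabra3, Gabrr1 and Gabrr2 form a set of 6 genes, taken by Ensembl ID from a table of 47069 genes. All 6 had counts in each of the 11 libraries and all 6 passed the filter on low counts, which left 18188 genes for testing. Bulk RNA-seq was done on retinas of C57BL/6 mice, 2 libraries of wild type and 3 of Brn3b-Kir2.1 at postnatal day 4 (P4), and 3 of each at P8. Brn3b-Kir2.1 animals combine Brn3b-cre, active in retinal ganglion cells, with a CAG-driven transgene whose stop cassette is removed by Cre and which then encodes human Kir2.1, an inward-rectifier potassium channel, joined to a yellow fluorescent protein. The control is given as wild type in the genotype field, while the extraction protocol names Brn3b-cre mice, so whether the controls carry Cre is not settled by the labels. The protocol also gives the later age as P11, where the age field and the titles give P8, the name used here. The labels name retinal ganglion cells as the source and retina as the tissue, and the protocol describes dissociation of whole retinas with no sorting step. How many animals went into a library is not stated, so the p-values measure the spread between these libraries, which may be technical in part.

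Slc12a2 carries sodium, potassium and chloride into a cell, and Slc12a5, which is specific to neurons, uses the potassium gradient to carry chloride out. Their balance sets whether the opening of a GABA-A receptor, a pentameric chloride channel, depolarises or hyperpolarises a neuron, and in immature neurons high internal chloride makes GABA depolarising. The alpha subunits form part of the GABA binding site together with beta subunits, and the alpha subunit influences where a receptor sits and how it responds. The rho subunits encoded by Gabrr1 and Gabrr2 form slow, bicuculline-insensitive receptors, long called GABA-C receptors, that are best known from the terminals of retinal bipolar cells.

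Total counts in genes ranged from 9362215 to 12478838 per library, and levels are given as CPM, counts of a gene relative to the TMM-scaled total of gene counts in its library. The libraries held RNA of many retinal cell types. Summed over 8 markers, ganglion cell genes were at 1102 and 698 CPM in wild type P4 and at 509, 172 and 551 CPM in Kir2.1 P4, so the genotypes did not overlap there, and at 68.9 to 204 CPM at P8. All 8 were on the lower side in Kir2.1 at P4, with a median log2 fold change of -1.32, 7 of 8 at an unadjusted p under 0.05, where 7.22% of all genes lay, and none called by edgeR, where 0% of all genes were, and the part of this shift in the P4 genotype values below was not tested. The 8 amacrine cell genes summed to 906 to 3025 CPM over all libraries. No ganglion cell marker was at 0 in any library. The second wild-type P4 library stood apart from the other P4 libraries: the bipolar cell gene Grm6 was at 57.4 CPM there and at no more than 0.46 CPM in the others, and the 6 genes of dividing cells summed to 875 CPM against 1964 to 2515 CPM. Over 7 rod genes the first wild-type P8 library reached 549 CPM, and the remaining P8 libraries 2236 to 5196 CPM. The second Kir2.1 P8 library had the fewest gene counts, 31325 genes detected against 22609 to 24591 in the others, and 69.4% of unique records in no gene against 57.0% to 62.4%. In bulk samples fewer cells of a type and less RNA per cell cannot be told apart.

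The genotype comparison asks whether Kir2.1 in ganglion cells, a channel that holds a cell near its resting potential, went with another level of these genes. None of the 6 members differed between Kir2.1 and wild type at either age at an adjusted p under 0.05 in edgeR's quasi-likelihood test with Benjamini-Hochberg adjustment over all genes tested, and the background was the same: percent called was 0 at P4 and 0 at P8. At an unadjusted p under 0.05, edgeR returned 1 of 6 members at P4, Gabrr1, where 7.22% of all genes tested (1314 genes) lay under it, and 0 of 6 at P8, where 6.82% (1240 genes) did. With DESeq2 the number of genes called was 33 at P4 and 3 at P8, with no member among them, though DESeq2 gave Gabrr2 no adjusted p at P4. The median log2 fold change of the members was -0.18 at P4 and -0.05 at P8, beside 0.01 and 0.00 over all genes tested. The difference between the genotype effects at the 2 ages was called for 0 of 6 members and for 0 of all genes, with 1 of 6 members, Gabrr1, and 562 genes (3.09%) at an unadjusted p under 0.05 by edgeR, and 0 genes called by DESeq2.

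Age moved more of them. From P4 to P8, 3 of 6 members rose in the Kir2.1 retinas, Slc12a5, Gabrr1 and Gabrr2, where 7.93% of all genes tested rose and 16.7% changed. No member passed the test between the same ages in wild type, where 0.803% of genes rose, 3.58% fell and 4.39% changed, although each member's log2 change had the same sign in both genotypes, positive for 5 and negative for Gabra2. The members' median change was 0.60 (wild type) and 0.48 (Kir2.1), beside 0.03 and 0.00 for all genes. At an unadjusted p under 0.05 edgeR gave 3 of 6 members in wild type, where 19.6% of genes lay under it, and 4 of 6 in Kir2.1, where 29.7% did. Whether the age change differed between the genotypes is the same test as the difference of the genotype effects, which no member passed.

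**Figure D1:**
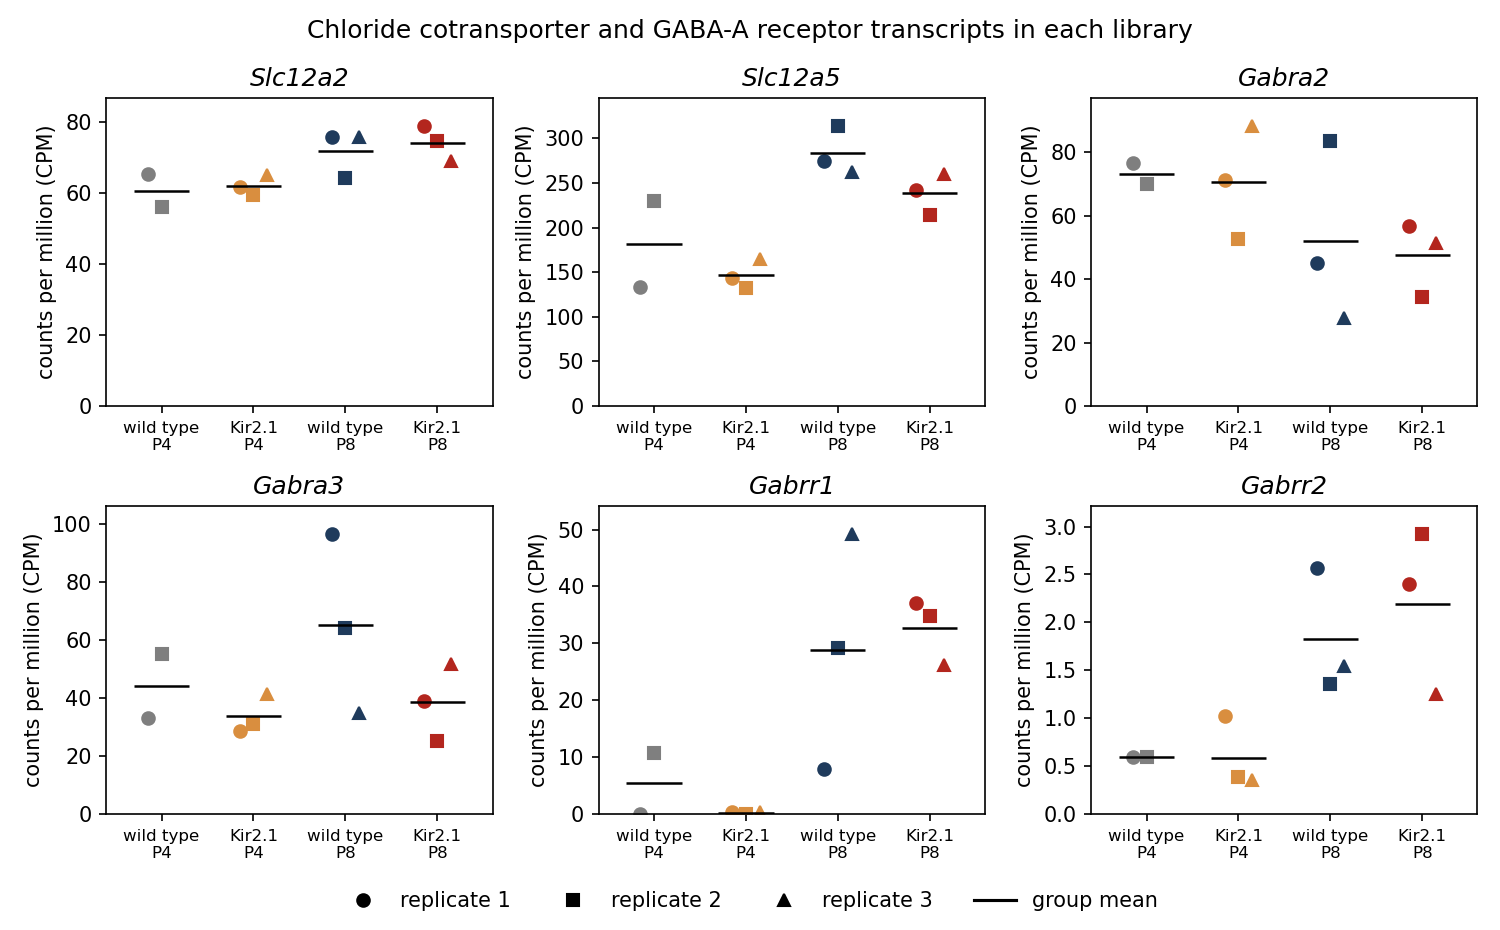
Level of each of the 6 members in each of the 11 libraries, in CPM on an axis from 0 for each gene, with 1 point per library (marker shape by replicate) and a bar at the mean of each group. Gabrr1 runs from 0.08 to 49.2 CPM, and its second wild-type P4 library lies far above the other P4 libraries; Slc12a2 stays between 56.2 and 78.9 CPM.

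Slc12a2 (ENSMUSG00000024597) lies on the forward strand of chromosome 18, from 57878678 to 57946821 in GRCm38 by the GENCODE M21 annotation. It was at 65.3 and 56.2 CPM in wild type P4, at 61.8, 59.6 and 65.0 CPM in Kir2.1 P4, at 76.0, 64.2 and 75.9 CPM in wild type P8 and at 78.9, 74.6 and 69.0 CPM in Kir2.1 P8. The genotypes overlapped at both ages, and the 3 Kir2.1 libraries at P8 were all above the 3 at P4. The log2 fold change of Kir2.1 against wild type was 0.03 ± 0.13 (SE) at P4, with a 95% interval from -0.25 to 0.31, and 0.04 ± 0.11 at P8, with an interval from -0.21 to 0.29. These were the narrowest intervals among the members. The age change was 0.25 ± 0.13 in wild type (edgeR adjusted p = 0.327) and 0.26 ± 0.11 in Kir2.1 (edgeR adjusted p = 0.154), so neither passed the test.

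Slc12a5 (ENSMUSG00000017740; forward strand of chromosome 2, from 164960802 to 164999731) was at 134 and 230 CPM in wild type P4 and at 143, 133 and 165 CPM in Kir2.1 P4. Values at P8 were 275, 314 and 262 CPM in wild type and 242, 214 and 260 CPM in Kir2.1. Every P8 library was above every P4 library of its genotype, and at P8 the 3 Kir2.1 libraries lay below the 3 wild-type libraries, though only just, with the highest Kir2.1 value at 260 CPM and the lowest wild-type value at 262 CPM. Ranges that did not overlap, with Kir2.1 lower, were present for 5.11% of genes at P8. The age change was a rise of 0.70 ± 0.18 on the log2 scale in Kir2.1, 1.62-fold (edgeR adjusted p = 0.0178). It was 0.64 ± 0.20 in wild type, 1.56-fold, which missed the threshold (edgeR adjusted p = 0.0962). The wild-type value depended on which P4 library was kept: it was 0.30 (edgeR adjusted p = 0.818) without the first and 1.09 (edgeR adjusted p = 0.00415) without the second, and DESeq2 and voom called it with all libraries (adjusted p = 0.0296 and 0.0331). The call in Kir2.1 was lost when either of 2 P4 libraries, replicates 1 and 2, or either of 2 P8 libraries, replicates 1 and 3, was left out, with edgeR adjusted p from 0.0511 to 0.0772.

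The genotype values of Slc12a5 were negative at both ages and did not pass the test. The log2 fold change was -0.31 ± 0.19 at P4, with a 95% interval from -0.73 to 0.12 (edgeR adjusted p = 0.737), and -0.25 ± 0.17 at P8, with an interval from -0.63 to 0.13 (edgeR adjusted p = 0.737). Without the second wild-type P4 library the P4 value was 0.14, and without the second Kir2.1 P8 library, the lowest at P8, the P8 value was -0.17. In the authors' deposited table Slc12a5 was the only member called at P4, with a log2 fold change of -0.63 ± 0.16 (adjusted p = 0.00813), where 2.27% of the genes with an adjusted p were called.

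The ratio of Slc12a5 to Slc12a2 counts within a library needs no scaling between libraries. Wild type P4 gave 2.05 (95% counting interval 1.88 to 2.24) and 4.09 (3.76 to 4.46), and Kir2.1 P4 gave 2.32, 2.23 and 2.54. At P8 it was 3.62, 4.89 and 3.45 in wild type and 3.07, 2.87 and 3.77 in Kir2.1. Slc12a5 thus had more counts in all 11 libraries, and the 2 wild-type P4 libraries differed far beyond counting error, one below every other library and the other above 9 of the other 10. Group means were 3.07 ± 1.45 (SD, n = 2) in wild type P4, 2.36 ± 0.161 (n = 3) in Kir2.1 P4, 3.99 ± 0.785 (n = 3) in wild type P8 and 3.23 ± 0.473 (n = 3) in Kir2.1 P8. Divided by exon length, 7447 bases for Slc12a5 and 10920 for Slc12a2, the means were 4.50, 3.46, 5.85 and 4.74.

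**Figure D2:**
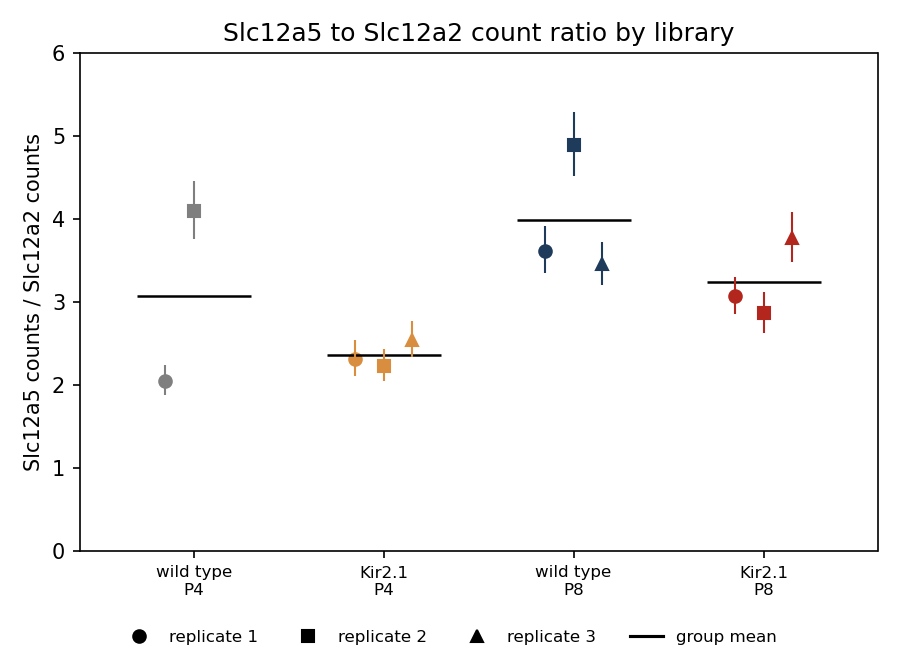
Ratio of Slc12a5 to Slc12a2 counts in each library by group, with 95% counting intervals as vertical lines and the group mean as a bar. The 3 Kir2.1 libraries at P8 lie above the 3 at P4, while the wild-type groups overlap because the second P4 library is at 4.09.

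Over both genotypes the ratio was 1.36-fold higher at P8 than at P4, a log2 difference of 0.45 (exact two-sided permutation of age within genotype over 200 arrangements, p = 0.045; the smallest p this design allows is 0.005). The difference was 0.44 in wild type, where the ranges overlapped (exact permutation p = 0.5), and 0.45 in Kir2.1, where they did not (exact permutation p = 0.1, the smallest that 3 against 3 allows). Leaving out single libraries moved the pooled difference between 0.20 and 0.70, and 9 of the 11 such values no longer passed the threshold. Between genotypes the ratio in Kir2.1 was 0.815 times that in wild type, a log2 difference of -0.29 (exact permutation of genotype within age, p = 0.18), with -0.30 at P4 (exact permutation p = 0.6) and -0.29 at P8 (exact permutation p = 0.3). Without the first wild-type P4 library the genotype difference was -0.54 (exact permutation p = 0.0375), and without the second it was -0.04. Adjusted by Benjamini-Hochberg over the 2 ratio tests, the pooled values were 0.09 for age and 0.18 for genotype.

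Gabra2 (ENSMUSG00000000560; reverse strand of chromosome 5, from 70957597 to 71095849) encodes an alpha subunit of GABA-A receptors. It was at 76.7 and 70.0 CPM in wild type P4, at 71.2, 52.6 and 88.4 CPM in Kir2.1 P4, at 45.2, 83.7 and 27.7 CPM in wild type P8 and at 56.7, 34.5 and 51.4 CPM in Kir2.1 P8. The groups overlapped in every comparison, and the 3 wild-type P8 libraries differed 3-fold among themselves. Its log2 fold change between genotypes was -0.05 ± 0.37 at P4 and -0.13 ± 0.33 at P8 (edgeR adjusted p = 0.982 and 0.939), with 95% intervals from -0.85 to 0.74 and from -0.85 to 0.59. Its age values were -0.49 ± 0.36 (wild type) and -0.57 ± 0.33 (Kir2.1), neither past the threshold (edgeR adjusted p = 0.522 and 0.282). The wild-type value was -1.01 without the second P8 library and -0.19 without the third. At P8 the genotype value was 0.39 without the second wild-type library and 0.05 without the second Kir2.1 library.

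Gabra3 (ENSMUSG00000031343; reverse strand of the X chromosome, from 72432681 to 72656848) encodes another alpha subunit. It was at 33.2 and 55.2 CPM in wild type P4 and at 28.7, 31.1 and 41.6 CPM in Kir2.1 P4. Values at P8 were 96.6, 64.3 and 34.8 CPM in wild type and 38.9, 25.1 and 51.9 CPM in Kir2.1, so the third wild-type library fell among the Kir2.1 libraries. The P8 genotype value was -0.75 ± 0.35, with a 95% interval from -1.51 to 0.01 (edgeR adjusted p = 0.699). Without the third wild-type library it was -1.05 (edgeR adjusted p = 0.0801), and without the first it was -0.36. It was -0.52 without the second Kir2.1 library. The authors' deposited table gave -1.08 ± 0.26 for Gabra3 at P8 and called it (adjusted p = 0.00259), the only member it called there, where 7.27% of the genes with an adjusted p were called. At P4 the genotype value was -0.39 ± 0.39 (edgeR adjusted p = 0.838), and it was 0.03 without the second wild-type library. The age values of Gabra3 were 0.56 ± 0.39 (wild type) and 0.19 ± 0.35 (Kir2.1), neither past the threshold (edgeR adjusted p = 0.494 and 0.775). Leaving out 1 wild-type library gave 0.15, without the first P8 library, to 0.98, without the second P4 library.

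The level of Gabra3 moved with the summed amacrine cell genes over the P8 libraries. The 8 amacrine markers summed to 3025, 2080 and 1091 CPM in wild type P8 and to 1501, 906 and 1583 CPM in Kir2.1 P8. Gabra3 was highest and lowest in the same libraries as this sum. Tfap2b alone held 1922 of the 3025 CPM in the first wild-type P8 library. Tfap2a, Tfap2b, Slc32a1, Slc6a9 and Chat were highest in that library at P8, like Gabra3. Gad1, Gad2 and Tfap2c were instead highest in the second wild-type P8 library (251, 81.7 and 28.4 CPM, against 209, 55.3 and 22.6 CPM in the first). All 8 markers were on the lower side in Kir2.1 at P8, with a median log2 fold change of -0.47, and none was called. At P4 the sums were 1511 and 1960 CPM in wild type and 1567, 1664 and 1852 CPM in Kir2.1. The part of these genes in the Gabra3 values was not tested.

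Gabrr1 (ENSMUSG00000028280; forward strand of chromosome 4, from 33132521 to 33163588) and Gabrr2 (ENSMUSG00000023267; same strand, from 33062999 to 33095865) encode the rho1 and rho2 subunits and are neighbours on the chromosome. Because both rose with age in the Kir2.1 retinas, the stretches before their starts are shown, taken from the RefSeq promoter table for GRCm38.p6 and ended where the GENCODE gene begins. Windows of 5 of the 6 members were searched, and Slc12a2 was left out of the search. Each window was searched over the 250 bases before the RefSeq start on both strands for TAATCC, the core bound by the homeodomain factors Crx and Otx2 of photoreceptors and bipolar cells, and for CANNTG, the E-box bound by basic helix-loop-helix factors. Capitals mark a TAATCC match, written GGATTA where it is on the other strand.
Gabrr1, chr4:33132306-33132520, forward strand: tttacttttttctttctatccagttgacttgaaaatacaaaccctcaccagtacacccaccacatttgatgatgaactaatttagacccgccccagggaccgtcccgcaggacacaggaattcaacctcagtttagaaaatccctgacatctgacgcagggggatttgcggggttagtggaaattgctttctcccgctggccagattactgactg
Gabrr2, chr4:33062862-33062998, forward strand: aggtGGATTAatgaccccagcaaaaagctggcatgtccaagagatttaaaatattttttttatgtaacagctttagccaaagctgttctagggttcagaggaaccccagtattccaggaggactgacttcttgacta
The Gabrr2 window held 1 TAATCC match, on the other strand, and the Gabrr1 window held 0. A TAATCC match was present in 6.25% of 32851 windows of this length, and 1 more was found among the 5 members searched, in that of Gabra2. The Gabrr1 window held 3 CANNTG matches and the Gabrr2 window 1, past the shown stretch, where 66.2% of all windows held at least 1. No TAATCC match overlapped a CANNTG match, and a match is a description of the letters.

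Gabrr1 was nearly absent from 4 of the 5 P4 libraries. It had 1 count (0.0855 CPM) in the first wild-type P4 library and 4, 1 and 4 counts (0.37, 0.08 and 0.35 CPM) in Kir2.1 P4, but 126 counts (10.7 CPM) in the second wild-type P4 library. Values at P8 were 7.88, 29.3 and 49.2 CPM in wild type and 37.0, 34.8 and 26.2 CPM in Kir2.1. The first wild-type P8 library was thus lower than the second wild-type P4 library, and in Kir2.1 all P8 libraries were above all P4 libraries. The Kir2.1 age change was a rise of 6.93 ± 1.18 on the log2 scale (edgeR adjusted p = 0.00229). As a ratio of summed counts, 1073 against 9, it was 128-fold with a 95% counting interval from 67.0 to 280. It kept its call in every alternative run, with log2 values from 6.45 to 7.23.

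In wild type the age change of Gabrr1 was 2.42 ± 0.95 and missed the threshold (edgeR adjusted p = 0.184), and the ratio of summed counts was 5.48 (4.56 to 6.64). Without the first wild-type P4 library the fitted value was 1.43 (edgeR adjusted p = 0.750). Without the second wild-type P4 library it was 8.23 (edgeR adjusted p = 0.00418), resting on a single P4 library with 1 count, and the ratio of P8 counts to that library was 346 with a counting interval from 62.0 to 13688. The genotype value at P4 depended on the same library. It was -4.33 ± 1.32 with all libraries (edgeR adjusted p = 0.677) and 1.48 without that library, so its direction is decided by 1 library. At P8 the genotypes overlapped, with 0.18 ± 0.75 (edgeR adjusted p = 0.971) and a 95% interval from -1.45 to 1.80. The difference between the genotype effects was 4.51 ± 1.55 (edgeR adjusted p = 0.9998), and -1.30 at its lowest when single libraries were left out. The authors' deposited table gave -4.72 for Gabrr1 at P4 with a p of 2.75e-05 and no adjusted p, and 0.75 at P8 (adjusted p = 0.638).

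Gabrr1 moved with the bipolar cell genes, and the rod genes moved in a similar way. The 8 bipolar markers summed to 215 and 461 CPM in wild type P4 and to 251, 306 and 237 CPM in Kir2.1 P4, then to 536, 987 and 1763 CPM in wild type P8 and to 1286, 1447 and 1109 CPM in Kir2.1 P8. The library with the highest Gabrr1 level at P4 had the highest bipolar sum at P4, and the lowest at P8 had the lowest sum. The same 2 libraries had the highest rod sum at P4 (876 CPM, against 151 to 526 CPM in the others) and the lowest at P8 (549 CPM, against 2236 to 5196 CPM). Trpm1, the channel of ON bipolar cells, was at 47.9 CPM in the second wild-type P4 library and at no more than 1.71 CPM in the other P4 libraries, and Grm6, their glutamate receptor, was at 0 in the first. All 8 bipolar markers and all 7 rod genes rose with age in Kir2.1, where 7.93% of all genes rose, with medians of 4.90 and 3.85 on the log2 scale. In wild type 1 of the 8 bipolar markers was called and 0 of the 7 rod genes, where 0.803% of all genes rose. All of them were on the higher side there, with medians of 2.44 and 2.47. The genotypes' age changes were not called different for any of them. The part of the bipolar and rod genes in the Gabrr1 values was not tested.

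**Figure D3:**
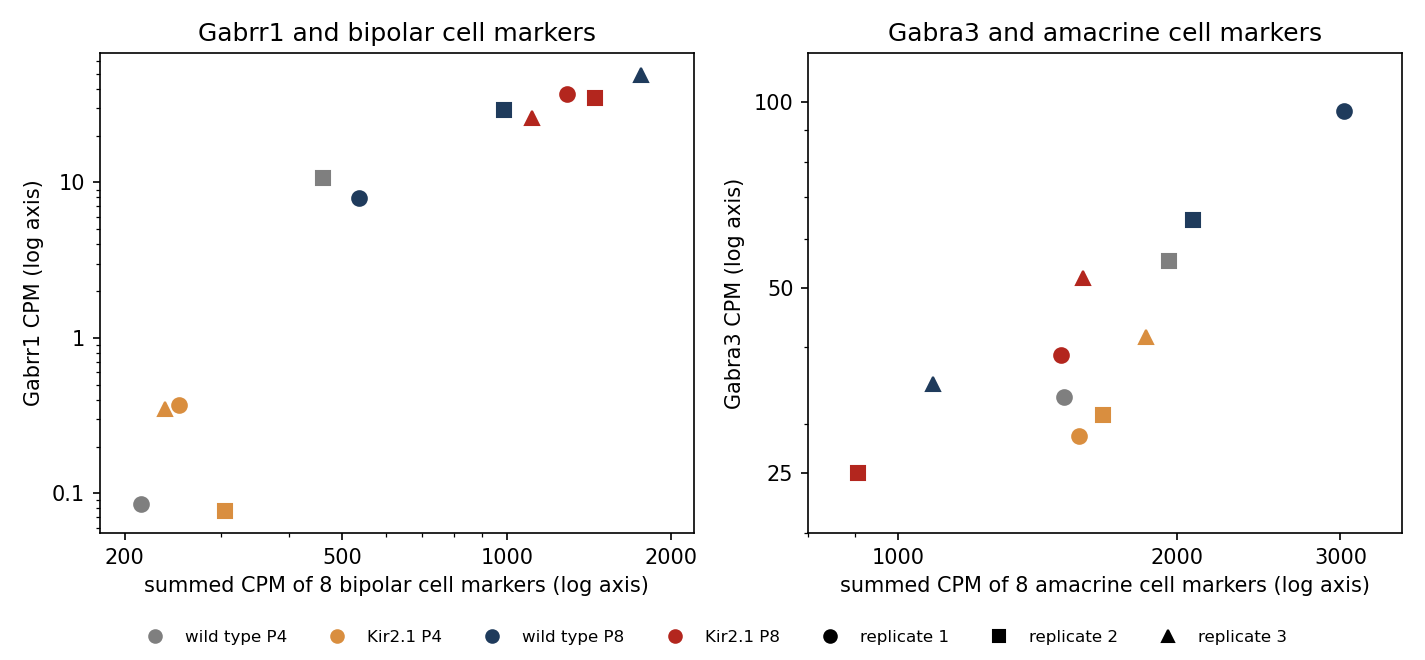
Gabrr1 against the summed level of 8 bipolar cell genes, and Gabra3 against the summed level of 8 amacrine cell genes, in CPM on log axes with 1 point per library, colour by group and shape by replicate. The second wild-type P4 library (461 CPM, Gabrr1 at 10.7 CPM) lies apart from the other P4 libraries, and the first wild-type P8 library has the highest amacrine sum (3025 CPM) and the highest Gabra3 (96.6 CPM).

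Gabrr2 was low in every library. It had 7 and 7 counts in wild type P4 (0.60 and 0.59 CPM), 11, 5 and 4 in Kir2.1 P4 (1.02, 0.38 and 0.35 CPM), 28, 16 and 19 in wild type P8 (2.57, 1.36 and 1.55 CPM) and 29, 28 and 14 in Kir2.1 P8 (2.40, 2.92 and 1.25 CPM). Every P8 library was above every P4 library of its genotype. It rose with age in Kir2.1 by 1.90 ± 0.59 on the log2 scale (edgeR adjusted p = 0.0469), and the ratio of summed counts was 3.80 (95% counting interval 2.29 to 6.60). This call lay at the threshold: it was lost without a filter on low counts (adjusted p = 0.0696) and in 5 of the 6 fits that left out 1 Kir2.1 library, all except the one without P4 replicate 1, with adjusted p from 0.0510 to 0.143. In wild type the change was 1.60 ± 0.68 (edgeR adjusted p = 0.218) and the ratio of counts 3.03 (1.68 to 5.85). Between genotypes the values were -0.04 ± 0.69 at P4 and 0.26 ± 0.55 at P8 (edgeR adjusted p = 0.995 and 0.924), with 95% intervals from -1.55 to 1.47 and from -0.93 to 1.45.

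**Figure D4:**
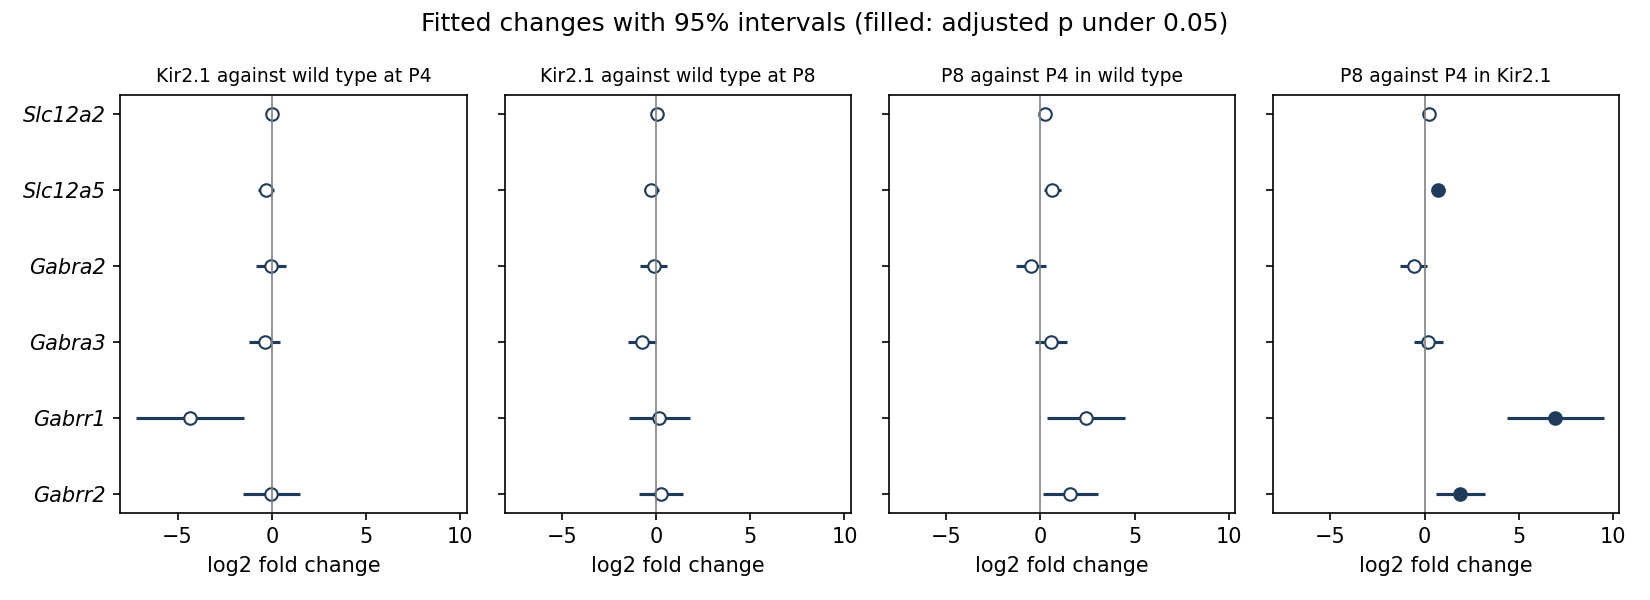
Log2 fold change of each of the 6 members between genotypes at P4 and P8 and between ages in each genotype, with 95% intervals from the edgeR fit and filled points for an adjusted p under 0.05. No genotype value is filled, and the 3 filled points are the age changes of Slc12a5 (0.70), Gabrr1 (6.93) and Gabrr2 (1.90) in Kir2.1.

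Counted by ranges that did not overlap, 4 of 6 members were higher at P8 in Kir2.1 (Slc12a2, Slc12a5, Gabrr1 and Gabrr2), where 19.4% of all genes were. In wild type 2 of 6 were higher at P8, Slc12a5 and Gabrr2, where 14.2% of all genes were, and none was lower, where 16.9% were. Between genotypes at P4 no member was apart in either direction, with a background of 12.4% higher and 14.4% lower, and at P8 Slc12a5 alone was apart, on the lower side, with a background of 5.11% lower and 5.5% higher.

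Per kilobase of exon, Slc12a5 was the most abundant member in every group, at 24.4 CPM per kb in wild type P4, 19.7 in Kir2.1 P4, 38.1 in wild type P8 and 32.1 in Kir2.1 P8. It was apart from the next member in all 4 groups. In wild type P4 the order went on with Gabra3 (11.3 CPM per kb), Gabra2 (9.60), Slc12a2 (5.56), Gabrr1 (2.35) and Gabrr2 (0.283), and the ranges of Gabra3 and Gabra2, and of Gabrr1 and Gabrr2, overlapped. In Kir2.1 P4 it went on with Gabra2 (9.26), Gabra3 (8.61), Slc12a2 (5.69), Gabrr2 (0.278) and Gabrr1 (0.116), and only Gabra2 and Gabra3 were neighbours that overlapped. At P8 Gabrr1 had moved up, to 12.6 CPM per kb in wild type and 14.3 in Kir2.1. At that age Gabra3 (16.6 in wild type, 9.84 in Kir2.1), Gabrr1, Gabra2 (6.83 and 6.22) and Slc12a2 (6.60 and 6.79) overlapped neighbour by neighbour in both genotypes, and Gabrr2 was lowest, at 0.867 and 1.04.

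Of the 15 other GABA-A subunits, 13 were tested. With age in Kir2.1, 3 of 13 rose and 1 fell, against 7.93% and 8.73% of all genes, and in wild type 1 rose and 0 fell, against 0.803% and 3.58%. Of those that rose in Kir2.1, Gabrr3, the remaining rho subunit, was at 0.093 to 1.61 CPM in Kir2.1 P4 and 8.12 to 14.7 CPM in Kir2.1 P8, a rise of 3.74 ± 0.84 (edgeR adjusted p = 0.0103). Like Gabrr1, it was higher in the second wild-type P4 library (4.65 CPM) than in the first (0.171 CPM), and its exons overlap a gene on the other strand. Gabrd, the delta subunit of extrasynaptic receptors, rose by 2.71 ± 0.81 (edgeR adjusted p = 0.0381), and Gabrb1 fell by 0.70 ± 0.22 (edgeR adjusted p = 0.0465). The call of Gabrr3 in Kir2.1 held in every alternative run, while those of Gabrd and Gabrb1 were each lost in 7.

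Between genotypes, 11 of the 13 tested subunits were on the lower side in Kir2.1 at P4, with a median of -0.40, and 11 of 13 at P8, with a median of -0.33, beside medians of 0.01 and 0.00 over all genes. None passed the test at either age. The lowest values at P4 were those of Gabrd (-1.97 ± 0.87) and Gabrr3 (-1.58 ± 0.94), and the highest those of Gabre (0.34 ± 0.56) and Gabrq (0.29 ± 0.68). Without the second wild-type P4 library the value was 2.16 for Gabrr3, a change of direction, and -1.18 for Gabrd. At P8 Gabrb2, a beta subunit, was at 39.7, 42.5 and 27.7 CPM in wild type and at 20.2, 23.5 and 17.6 CPM in Kir2.1. The groups did not overlap, and the log2 fold change was -0.84 ± 0.18 (edgeR adjusted p = 0.699). Without the third wild-type P8 library Gabrb2 passed (edgeR adjusted p = 0.0321), and that library, the lowest in Gabrb2 among the wild-type P8 libraries, also had the lowest amacrine sum among them. The authors' deposited table called Gabrb2 at P8, with a log2 fold change of -1.02 (adjusted p = 0.00091).

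Of the 7 other SLC12 cotransporters, 6 were tested, and 1 changed with age in each genotype, where 16.7% of all genes changed in Kir2.1 and 4.39% in wild type. Slc12a7 (KCC4), a potassium-chloride cotransporter, was at 18.2 and 17.1 CPM in wild type P4 and 7.79 to 9.60 CPM in wild type P8, and at 22.6 to 25.6 CPM in Kir2.1 P4 and 7.41 to 12.8 CPM in Kir2.1 P8. It fell by 1.03 ± 0.22 on the log2 scale in wild type (edgeR adjusted p = 0.0204) and by 1.25 ± 0.20 in Kir2.1 (edgeR adjusted p = 0.00175), opposite in sign to the values of Slc12a5. The call in wild type was lost in 4 alternatives, and that in Kir2.1 in none. Between genotypes none of the 6 passed, with 5 of 6 on the higher side at P4 and 4 of 6 at P8.

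The WNK kinases and their effectors SPAK (Stk39) and OSR1 (Oxsr1) phosphorylate these cotransporters, which activates Slc12a2 and inhibits Slc12a5. Of 8 such kinases and adaptors, all tested, 1 rose with age in Kir2.1, where 7.93% of all genes rose, and 0 changed in wild type, where 4.39% of all genes changed. Stk39 was at 33.5 to 39.7 CPM in Kir2.1 P4 and 54.1 to 64.9 CPM in Kir2.1 P8, a rise of 0.64 ± 0.14 on the log2 scale (edgeR adjusted p = 0.00936). In wild type it gave 0.46 ± 0.16 (edgeR adjusted p = 0.132), with ranges that did not overlap. None of the 8 passed the edgeR test between genotypes, and their medians were 0.02 at P4 and 0.00 at P8. The authors' deposited table called Wnk3 at P8, with a log2 fold change of -0.56 (adjusted p = 0.0274), where 7.27% of the genes with an adjusted p were called.

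Of 9 genes for the anchoring and trafficking of GABA-A receptors, 1 rose and 1 fell with age in Kir2.1, where 7.93% and 8.73% of all genes did, and 0 passed in wild type, where 4.39% changed, or between genotypes, where 0 did. Gphn, the scaffold gephyrin, was at 55.9 to 59.9 CPM in Kir2.1 P4 and 77.3 to 80.8 CPM in Kir2.1 P8, a rise of 0.42 ± 0.12 (edgeR adjusted p = 0.0299). Shisa7, an auxiliary subunit of GABA-A receptors, fell by 0.91 ± 0.23 (edgeR adjusted p = 0.0186), from 56.2 to 69.5 CPM at P4 down to 32.9 to 35.1 CPM at P8. In wild type P8 it stood at 70.4, 70.0 and 33.0 CPM, so the third wild-type library was again at the level of the Kir2.1 libraries, and the P8 genotype value was -0.75 ± 0.23 (edgeR adjusted p = 0.699). The authors' deposited table called Shisa7 at P8, with a log2 fold change of -1.05 (adjusted p = 5.8e-05), where 7.27% of the genes with an adjusted p were called. The age calls of Gphn and Shisa7 in Kir2.1 were lost in 7 and 5 alternatives. All 9 genes were on the lower side in Kir2.1 at P4 and 8 of 9 at P8, with medians of -0.12 and -0.10.

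For each member the most alike genes were sought among 12228 genes with a mean of at least 5 CPM, by the root mean square difference of centred log2 CPM over the 11 libraries. The libraries differ in depth and cell makeup, which all genes of a library share, and the part of these in the likeness was not tested. Slc12a5 was closest to Dnm1 (0.0776) and Sh3gl2 (0.0836), which encode dynamin 1 and endophilin A1 of synaptic vesicle recycling, where the median gene differed by 0.489. Gabra3 was closest to Slc32a1 (0.119), the vesicular transporter of inhibitory transmitters and one of the 8 amacrine markers, and to Csdc2 (0.152), against a median of 0.603. Gabrr1 was closest to Vsx1 (0.629) and Bhlhe23 (0.699), both transcription factors of bipolar cells, against a median of 2.998, and Vsx1 is one of the 8 bipolar markers. Slc12a2 was closest to Tbpl1 (0.0796) and Enoph1 (0.0836), Gabra2 to Lrrc3 (0.204) and E230020A03Rik (0.208), and Gabrr2 to Col20a1 (0.401) and Tcp11l2 (0.407), against medians of 0.304, 0.570 and 0.902.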

How the data were processed

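Each library's table holds the authors' whole-number counts per Ensembl gene, as deposited. The submitters' processing notes list cutadapt 1.18, STAR 2.5.0c, SAMtools 1.9, bedtools 2.26.0, HTSeq 0.6.1, DESeq2 and the build mm10. The annotation and strand setting are not given in the sources used here. Rows that are not genes were left out, and 57.0% to 69.4% of a library's unique records lay in no gene. The authors' tables for P4 and P8 hold, per the file headers, a signal (mean normalized count on the authors' scale), a log2 fold change and its SE, a test score, and p-values before and after adjustment. They are quoted as the authors' deposited values only.

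Groups, ages and replicates came from the titles. The counts went into edgeR 4.0.16 (R 4.3.3) with filterByExpr by group (18188 of 47069 genes), TMM (factors 0.964 to 1.05), and a quasi-likelihood fit of 4 group means over all 11 libraries (common BCV, the biological coefficient of variation, 0.247; residual df 7). Benjamini-Hochberg adjustment covered every gene tested, and calls needed an adjusted p under 0.05. On simulated data the fit recovered 32% of 2-fold and 72% of 4-fold changes at P4, 37% and 76% at P8, and 38% and 73% for age in wild type. The ratio of Slc12a5 to Slc12a2 was tested by exact permutation (scipy 1.17.1), and intervals of ratios are exact binomial at 95% and cover counting error only. Symbols were found for 46488 IDs. Coordinates and exon lengths are those of GENCODE M21 (GRCm38). No other GENCODE gene shares an exon base with a member. Exons of Gabrb1, Gabrr3, Gphn and Wnk3 overlap another gene, so reads there could belong to either. The same holds for the markers Grm6, Trpm1, Slc32a1, Tfap2a and Slc6a9. Promoter windows came from RefSeq.

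Alternatives were DESeq2 1.42.0 and its size factors, limma 3.58.1 voom with sample weights, other filters, leaving out genes that exceed 1% of a library, the replicate number as a block, fits of 2 groups and leaving out each library. The members and lists were chosen with earlier results of these data known. Listed genes are named where called in a comparison, where at the ends of their list with a mean of at least 1 CPM, or to complete the order of levels. Some listed genes that meet this rule are not reported here. Values of Stk39 and Shisa7 in comparisons that did not call them were chosen after they were seen. No duplicated library was found: replicates differed by a chi-square of 9.11 to 62.9 per degree of freedom.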

Additional observations from a re-analysis of the deposited data

How the results depend on the processing

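No member changed sign between genotypes or ages under another scaling, and no scaling moved the median of all genes by over 0.1 on the log2 scale. Gene totals depended on the tool and the filter. Between genotypes DESeq2 called 33 genes at P4 and 3 at P8, and without a filter on low counts the totals were 339 and 447, with 136 for the difference of the effects, against 0 in each with the filter. For age in wild type, 798 genes became 1580 with DESeq2, 2058 without a filter and 113 when only the 2 groups were fitted, the last with fewer libraries behind the spread. For the other totals the cause was not tested. Without the filter, Gabrr1 at P4 (-4.34) and Gabra3 at P8 (-0.75) passed between genotypes and the Gabrr1 difference of effects (4.51) passed.

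Leaving out 1 library of the groups compared gave 0 to 6 genes between genotypes at P4, 0 to 219 at P8, 0 to 1 for the difference of effects, 163 to 1339 for age in wild type and 1764 to 2169 for age in Kir2.1, the last against 3029. The 219 came without the third wild-type P8 library. For age in wild type, 163 came without the first and 1339 without the second P4 library, and 1299 without the first P8 library. For age in Kir2.1, 1764 came without P4 replicate 1, 2012 without P8 replicate 2 and 1841 without P8 replicate 3, while without the third wild-type P8 library 1794 genes rose and 1882 fell; leaving out a wild-type P4 library leaves 1 sample there, assumed to vary like the other groups. The ratio of Slc12a5 to Slc12a2 ranged from 0.20 to 0.70 on the log2 scale for age and from -0.54 to -0.045 for genotype, and by group medians its age difference was 0.36 (exact permutation p = 0.12).

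Some member values changed sign when 1 library was left out. At P4 between genotypes the ranges were -0.071 to 0.14 for Slc12a2, -0.65 to 0.14 for Slc12a5, -0.25 to 0.13 for Gabra2, -0.71 to 0.029 for Gabra3, -5.32 to 1.48 for Gabrr1 and -0.67 to 0.22 for Gabrr2. At P8 they were -0.033 to 0.093 for Slc12a2, -0.44 to 0.39 for Gabra2 and -0.27 to 0.81 for Gabrr1. For the difference of effects they were -0.10 to 0.11 for Slc12a2, -0.39 to 0.40 for Slc12a5, -0.38 to 0.44 for Gabra2, -0.78 to 0.021 for Gabra3 and -1.30 to 5.50 for Gabrr1, and voom gave -0.067 for Slc12a5. For age in Kir2.1 the range of Gabra3 was -0.08 to 0.43.

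Whether replicate numbers pair the samples was not settled. Deviations of same-numbered libraries from their group means correlated between -0.076 and 0.139 over 15 pairs, with a median of 0.048. Libraries with other numbers gave -0.147 to 0.143 over 30 pairs, with a median of -0.014. In groups this small the deviations mirror each other, so the check cannot exclude a pairing. With the replicate number as a block, 0 genes were called between genotypes at either age, 558 for age in wild type and 2928 for age in Kir2.1, and Gabrr2 at P4 was 0.11.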

Other observations

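The mean normalized counts in the authors' deposited tables did not stand in 1 ratio to the deposited counts. For the 6 members at P4, the authors' mean was between 0.550 and 0.873 times the mean of the 5 deposited counts, lowest for Gabra2 and highest for Slc12a5, and at P8 between 0.737 and 0.961 times. For Gabra2 at P4 the authors' mean was 461, below each of the 5 deposited counts, which ran from 685 to 1010. The fold changes differed too: for Gabra2 at P4 the authors' deposited table gave a log2 fold change of 0.18, and the edgeR fit of the deposited counts gave -0.05.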
